A study of Mus musculus with 4 samples.

Results

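Immediate early genes of the AP-1 and EGR families were followed in the microglia of 20 mice. The set held 10 of the 19737 genes in the deposited count table, and its members were listed by symbol, with earlier results of these data known. It comprised the Fos subunits Fos and Fosb, the Jun subunits Jun, Junb and Jund, the stress-responsive AP-1 partner Atf3, the zinc finger factors Egr1 and Egr2, the orphan nuclear receptor Nr4a1 and Ier2, a nuclear regulator of the same early wave. All 10 passed the filter on low counts in all microglia and in each of the 6 deposited clusters. Together they took 0.946% of all unique molecular identifiers (UMIs, the counted molecules), from 0.218% for Jun to 0.00226% for Egr2.

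Immediate early genes are switched on within minutes of a stimulus without new protein synthesis, because the factors that read them are already bound or only need phosphorylation. Fos and Jun proteins pair through leucine zippers into AP-1, which binds TGACTCA and related sites, whereas EGR proteins bind GC-rich sites and induce the NAB corepressors that limit them. In microglia these genes mark activation, and they are also well known to rise while brain tissue is dissociated with warm enzymes, which is how these cells were obtained. No sample of the series was prepared without that step, so induction in the brain and induction during dissociation cannot be told apart here.

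The study asked how the TREM2-activating antibody 4D9, and 4D9 fused to the antibody transport vehicle (ATV, an Fc that binds the human transferrin receptor and crosses into brain), changed microglia. All mice were on a C57BL/6J background and carried a homozygous human TfR knock-in (TfRmu/hu), also in the control groups. The AppSAA;TfRmu/hu mice carried in addition a homozygous knock-in of the App gene with 3 familial Alzheimer's disease mutations. The 20 mice, 4 in each of 5 groups, were given 1 intravenous dose of 10 mg per kg and sampled 24 h later. WT;TfRmu/hu mice received ATV:ISO, the isotype control, or ATV:4D9. AppSAA;TfRmu/hu mice received ATV:ISO, unfused 4D9 or ATV:4D9. The groups are called WT ATV:ISO, WT ATV:4D9, AppSAA ATV:ISO, AppSAA 4D9 and AppSAA ATV:4D9. The isotype arm is labelled ATV-DNP02, and no deposited text equates the names. The study's methods state that groups were matched for age and sex. Age was not used here, and 1 WT ATV:ISO mouse, that of pool 4, was recorded as female. Results below without WT ATV:ISO pool 4 therefore also leave out the only mouse recorded as female.

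Every group gave 1 mouse to each of the 4 pools in which the 74758 cells were prepared. A mouse gave 2193 to 6126 cells and 17150296 to 102446549 UMIs. The median UMIs per cell of a mouse lay between 6859 and 8173.5 in WT ATV:ISO and between 13479 and 17290 in WT ATV:4D9. The 3 AppSAA groups spanned 8444.5 to 9883.5 with ATV:ISO, 8293 to 11552.5 with 4D9 and 13560 to 16475 with ATV:4D9. All 8 microglial markers were detected, and the 6 markers of T and NK cells and the 6 of neurons each stayed under 1 CPM (counts per 1000000 UMIs) in every mouse. Of 74212 different barcodes, 543 (0.732%) occurred in more than 1 pool. Where a difference between groups is given below, fewer cells of a state and less RNA per cell cannot be told apart.

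Promoter sequence was available for 8 of the 10 genes in the RefSeq tables (12 start sites, GRCm38.p6, 250 bases before the start to 50 after), and Egr1 and Ier2 had no entry. The 3 stretches printed here cover the 250 bases before a start site of Fos, Egr2 and Nr4a1. These genes stand for the 3 behaviours described later on the CPM scale over all microglia, a gene called in no contrast, a gene that fell with ATV:4D9 in both genotypes, and a gene whose level followed the pool. Capitals mark the CRE half-site TGACG, to which ATF and CREB factors bind, read on either strand (CGTCA on the other), together with the TATA box TATAAA in Fos, the CArG box (the element of serum response factor) in Egr2 and the EGR site GCGGGGGCG or GCGTGGGCG in Nr4a1 (there on the opposite strand).
Fos chr12:85473640-85473889, + strand: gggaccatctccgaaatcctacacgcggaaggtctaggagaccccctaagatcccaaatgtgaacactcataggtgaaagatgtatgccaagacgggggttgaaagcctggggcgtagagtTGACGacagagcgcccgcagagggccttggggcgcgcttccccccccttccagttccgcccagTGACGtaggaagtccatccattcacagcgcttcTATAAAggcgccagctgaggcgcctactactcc
Egr2 chr10:67537619-67537868, + strand: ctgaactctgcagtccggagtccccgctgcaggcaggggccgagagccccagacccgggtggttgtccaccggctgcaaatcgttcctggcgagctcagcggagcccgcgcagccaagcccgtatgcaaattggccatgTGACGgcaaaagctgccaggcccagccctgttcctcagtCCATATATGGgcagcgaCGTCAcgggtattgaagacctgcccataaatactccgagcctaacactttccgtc
Nr4a1 chr15:101266596-101266845, + strand: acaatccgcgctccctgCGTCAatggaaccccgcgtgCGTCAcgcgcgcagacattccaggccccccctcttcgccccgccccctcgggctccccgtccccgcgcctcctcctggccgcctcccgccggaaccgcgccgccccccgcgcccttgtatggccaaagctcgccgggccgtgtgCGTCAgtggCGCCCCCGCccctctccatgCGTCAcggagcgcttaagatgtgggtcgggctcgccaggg
The half-site occurred in 6 of the 8 genes (Atf3, Egr2, Fos, Fosb, Junb and Nr4a1), and in 17.8% of all 32851 promoter entries of that length. The EGR site was found in Fosb and Nr4a1 (3.06% of all entries). A CArG box was found only in Egr2 (1.47%) and TATAAA only in Fos (12.4%). A gene counted with a match at any of its listed start sites, whereas each share is per entry. Bases outside the window were not searched. The full CRE TGACGTCA (1.55%) and the AP-1 site TGACTCA or TGAGTCA (4.46%) were found in none of the 8. A match describes the letters of the window and is not evidence of binding, and the Egr2 stretch belongs to 1 of several listed start sites.

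**Figure D1:**
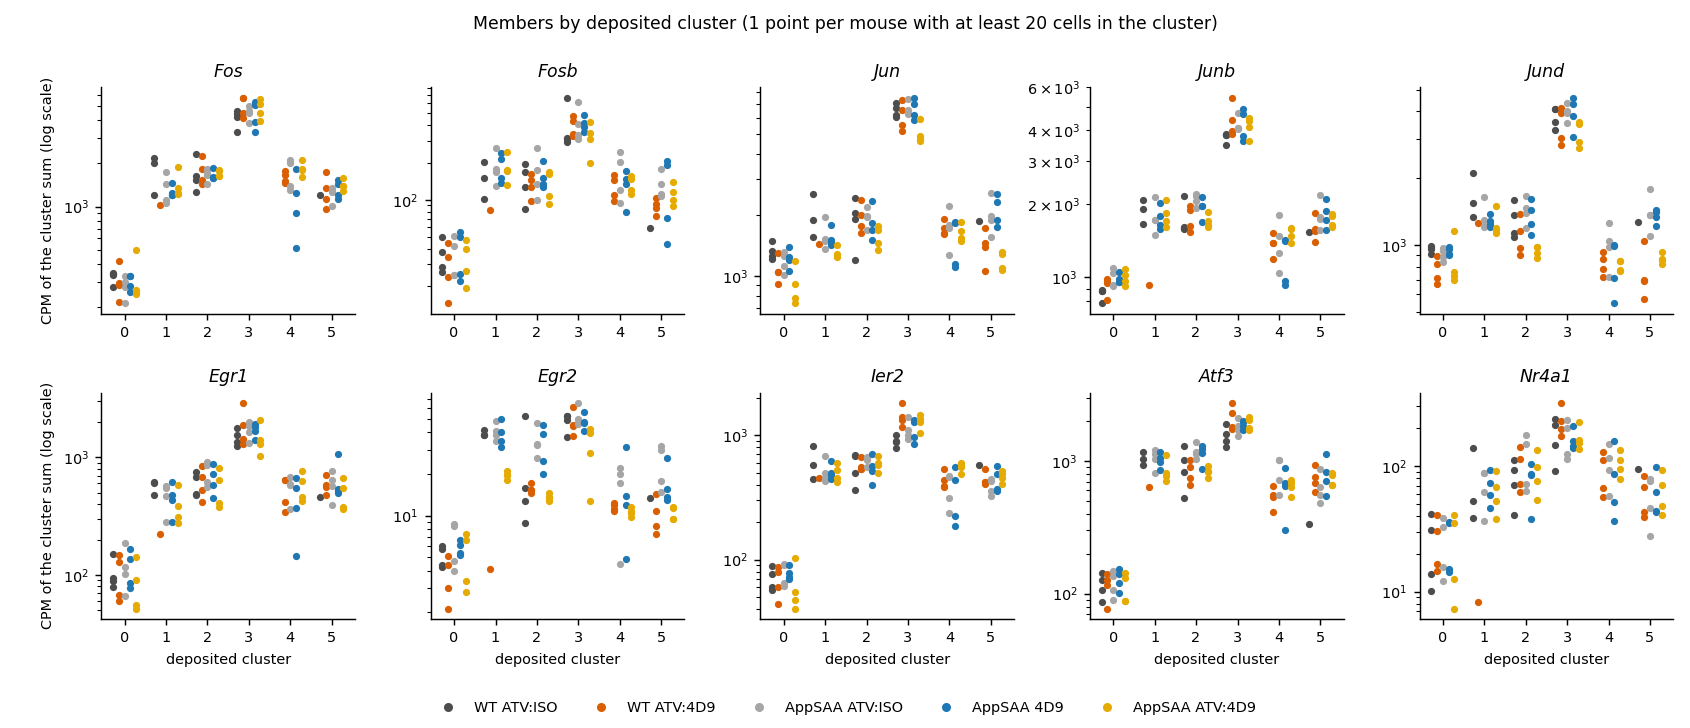
CPM of each gene (log scale) in the 6 deposited clusters, with 1 point per mouse that had at least 20 cells in the cluster, coloured by group. Every mouse sits higher in cluster 3 than in cluster 0 for each of the 10 genes, in all 5 groups.

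The first question was where in the population the transcripts lay. The authors deposited a cluster number for every cell, made from the expression of these cells, so a gene's level by cluster describes the clusters and was not tested. UMIs were summed per mouse and cluster (sums of at least 20 cells) and scaled to CPM. The 10 genes summed to 3639 ± 391 CPM (SD, n = 20 mice) in cluster 0 and to 23895 ± 2660 (SD, n = 20) in cluster 3. The other clusters lay between them, at 8286 ± 1356 (n = 16) in cluster 1, 9045 ± 1117 (n = 20) in cluster 2, 7289 ± 1440 (n = 16) in cluster 4 and 7730.5 ± 1179 (n = 17) in cluster 5. Clusters 1, 2, 4 and 5 overlapped each other in their mice, whereas cluster 0 lay below cluster 3 in every mouse.

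The size of that gap split the set. Fos, the inducible partner of Jun, was at 303 ± 67.8 CPM in cluster 0 and 4585 ± 728 in cluster 3 (SD, n = 20), a median of 15.5-fold within a mouse (9.63 to 26.8). Egr1, a rapid reporter of ERK signalling, had a similar gap, from 105 ± 39.7 to 1647 ± 414 CPM (16.1-fold). Ier2 was at 71.0 and 1158 CPM (16.1-fold) and Atf3 at 118 and 1859.8 (15.3-fold). Fosb, at 34.4 and 387 CPM, was 12.1-fold higher in cluster 3. The Jun genes were already well expressed in cluster 0 and had the smallest gaps. Jun was at 1141 ± 200 and 6204 ± 883 CPM (5.51-fold), Junb at 954 ± 81.9 and 4163 ± 493 (4.33-fold) and Jund, the least inducible of the family, at 883 ± 123 and 3667 ± 551 (4.12-fold, 3.04 to 5.89). Egr2 (8.74-fold) and Nr4a1 (7.93-fold) lay between. In each group the median gap of the summed set was of like size, at 6.13 in WT ATV:ISO, 7.40 in WT ATV:4D9, 6.73 in AppSAA ATV:ISO, 6.51 in AppSAA 4D9 and 6.79 in AppSAA ATV:4D9.

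**Figure D2:**
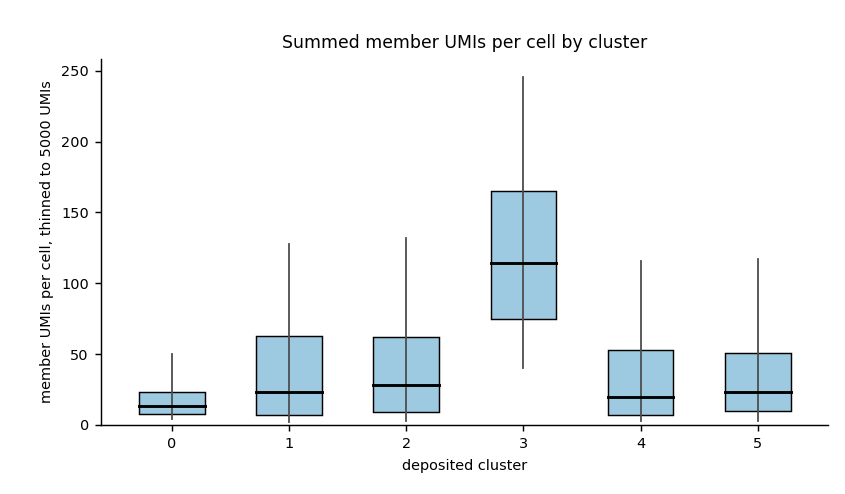
UMIs of the 10 genes per cell after thinning each cell to 5000 UMIs, by deposited cluster (line, median; box, 25th to 75th percentile; whisker, 5th to 95th percentile). Cluster 3 has a median of 114 against 13 in cluster 0, and the upper whiskers of clusters 1, 2, 4 and 5 reach into the range of cluster 3.

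Because cells differed in depth, each was also thinned to 5000 UMIs, which left out 4309 shallower cells (5.76%; 10.998% of WT ATV:ISO and 3.57% of AppSAA ATV:4D9 cells). The median cell then held 13 UMIs of the set in cluster 0 (25th to 75th percentile 8 to 23) and 114 in cluster 3 (75 to 165). In clusters 1, 2, 4 and 5 the median was 23, 28, 20 and 23, with 75th percentiles of 63, 62, 53 and 51. A cell at the 95th percentile of cluster 0 held 50 UMIs and a cell at the 5th percentile of cluster 3 held 40, so the ranges met only at their edges. Clusters 1 and 2 ran at their 95th percentiles to 128 and 132, above the median of cluster 3, so cells high in these genes were also found outside cluster 3. Egr2 was sparse throughout, with a thinned mean of 0.0283 UMIs a cell in cluster 0 and 0.253 in cluster 3.

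The share of cells in cluster 3 differed between the groups, at 35.8% ± 2.56 (SD, n = 4) in WT ATV:ISO, 25.1% ± 3.27 in AppSAA ATV:ISO, 24.9% ± 2.43 in AppSAA 4D9, 4.56% ± 0.917 in WT ATV:4D9 and 3.78% ± 1.85 in AppSAA ATV:4D9. Cluster 0 moved alongside it, at 60.4%, 30.8%, 30.4%, 3.11% and 2.52% in the same order. Since the clusters were made from expression, and whether these genes entered is not given in the sources used here, the shares are a description and were not tested. The source of the transcripts moved with them. Of all UMIs of the set, cluster 3 supplied 77.7% in WT ATV:ISO (74.7 to 80.2 over mice) and 8.21% in WT ATV:4D9. In the AppSAA groups it supplied 47.7% with ATV:ISO, 48.2% with 4D9 and 6.38% with ATV:4D9. Cluster 0 supplied 17.1% in WT ATV:ISO and at most 7.05% on average in any other group.

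**Figure D3:**
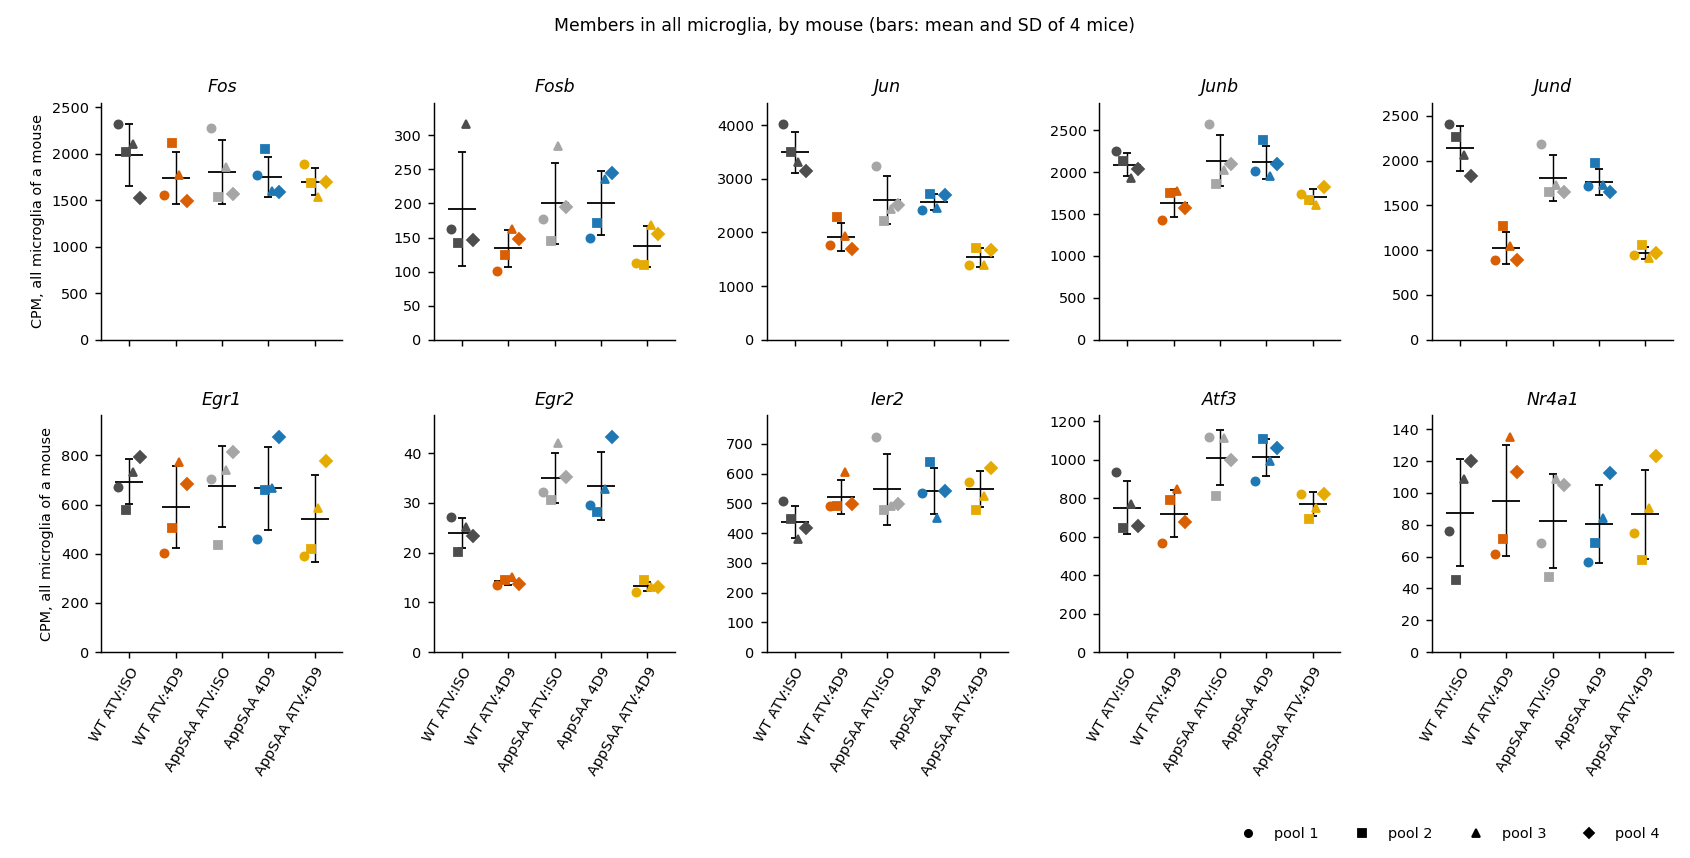
CPM of each gene over all microglia of a mouse, with 1 point per mouse, the shape giving the pool and the bars the mean and SD of 4 mice. For Jun, Junb, Jund and Egr2 every mouse given ATV:4D9 sits below every mouse of the same genotype given ATV:ISO. For Fos, Egr1 and Nr4a1 the groups overlap. The share of all genes without overlap is not given here, and 63.3% of all genes in WT and 55.1% in AppSAA mice were called. The fall of Jun, Jund and Egr2 in WT mice was called on this scale and not on UMIs per cell.

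Over all microglia, the question was whether ATV:4D9 changed these genes at 24 h. In WT mice 4 of the 10 were called by edgeR's quasi-likelihood test (Benjamini-Hochberg adjusted p under 0.05, each mouse a replicate), Jun, Jund and Egr2 lower and Ier2 higher, against 63.3% of all 14058 genes tested. In AppSAA mice 3 were called against ATV:ISO, the same Jun, Jund and Egr2, all lower, where 55.1% of all genes were called. The median log2 fold change of the set was -0.18 in WT and -0.28 in AppSAA mice, beside -0.05 and -0.03 over all genes. CPM values are shares of a mouse's UMIs. The log2 fold changes also carry edgeR's scaling factors (TMM), so they can differ from the ratio of the printed CPM. With ATV:4D9 a cell held more UMIs, and the median gene rose by 0.79 in WT and 0.47 in AppSAA mice on the log2 scale when counts were set against the number of cells instead.

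Jun was highest in WT ATV:ISO, with 4011, 3502, 3304 and 3139 CPM in pools 1 to 4, and lay at 1773, 2286, 1927 and 1682 in WT ATV:4D9. The groups did not overlap, and the log2 fold change was -0.76 (standard error 0.13, edgeR adjusted p = 2.68e-05). In AppSAA mice Jun was at 3245, 2209, 2433 and 2511 CPM with ATV:ISO and at 1383, 1713, 1389.9 and 1665 with ATV:4D9. It fell by 0.69 on the log2 scale (standard error 0.13, edgeR adjusted p = 0.000106), and again no mouse of one group reached the other. Per cell no fall was called, with log2 differences of 0.10 (adjusted p = 0.467) in WT and -0.18 (adjusted p = 0.195) in AppSAA mice. AppSAA mice held a mean of 29.7 Jun UMIs per cell with ATV:ISO and 26.2 with ATV:4D9. Jun lies on chr4:95049034-95052222 of GRCm38 (minus strand, 1 exon) and overlaps the antisense transcript Junos. Whether the counting used strand is not given in the sources used here.

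Jund, the Jun protein that is present in resting cells and restrains proliferation, had the largest fall of the AP-1 genes. WT ATV:ISO mice had 2402, 2265, 2063 and 1822 CPM and WT ATV:4D9 mice 894, 1264, 1047 and 887, a log2 fold change of -0.96 (standard error 0.13, edgeR adjusted p = 2.42e-06). Every treated mouse lay below every control. In AppSAA mice the values were 2188, 1649, 1732 and 1651 CPM with ATV:ISO and 943, 1054, 906 and 968 with ATV:4D9 (log2 fold change -0.83, standard error 0.13, edgeR adjusted p = 2.07e-05), also without overlap. On UMIs per cell Jund was still called lower in AppSAA mice, by 0.32 (adjusted p = 0.00902), but was not called in WT mice (-0.10, adjusted p = 0.365). Its position is chr8:70698949-70700616 (plus strand, 1 exon), where Gm11175 overlaps it on the other strand.

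Junb, an inducible Jun with weaker activating capacity, was lower in every ATV:4D9 mouse but was not called. Exons of Prdx2 overlap it on the other strand. WT ATV:ISO mice had 2252, 2136, 1935 and 2034 CPM and WT ATV:4D9 mice 1431, 1751, 1781 and 1570.4. The log2 fold change was -0.25 in each genotype (standard error 0.11, edgeR adjusted p = 0.0561 in WT and 0.0558 in AppSAA). With a block for the pool, where 74.6% of all genes were called in WT and 70.7% in AppSAA mice, it passed in both (adjusted p = 0.0198 and 0.0156). It was also called without WT ATV:ISO pool 3 or AppSAA ATV:ISO pool 1 in the WT contrast (-0.30 and -0.24), and in the AppSAA contrast without AppSAA 4D9 pool 2, AppSAA ATV:4D9 pool 1, AppSAA ATV:ISO pool 2 or 3 or WT ATV:ISO pool 1 (-0.31 to -0.25), with DESeq2 (-0.26, adjusted p = 0.0396) and with total UMIs (-0.32, adjusted p = 0.00601). The sign turned on UMIs per cell, to 0.61 (adjusted p = 0.000125) in WT and 0.26 (adjusted p = 0.0743) in AppSAA mice. On that scale 68.2% of all genes in WT and 52.1% in AppSAA mice were called higher.

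Fos itself did not separate the groups. It was at 2314, 2015, 2101 and 1519 CPM in WT ATV:ISO and at 1557, 2119, 1772 and 1494 in WT ATV:4D9, and the log2 fold change was -0.09 (standard error 0.16, edgeR adjusted p = 0.648). In AppSAA mice it was -0.01 (adjusted p = 0.950). The mice overlapped in both genotypes. Per cell, Fos rose by 0.77 in WT (adjusted p = 1.39e-05) and by 0.50 in AppSAA mice (adjusted p = 0.00185), where the median gene rose by 0.79 and 0.47. Fosb, whose splice forms outlast Fos, was at 163, 143, 316 and 147 CPM in WT ATV:ISO and at 101, 124, 162 and 148 in WT ATV:4D9 (-0.40, standard error 0.22, edgeR adjusted p = 0.123). The control mouse of pool 3 stood far above the others. With the pool as a block Fosb was called lower in WT (-0.36, adjusted p = 0.0141) and AppSAA mice (-0.46, adjusted p = 0.00278), against -0.47 (adjusted p = 0.0765) without it in AppSAA mice. Counted per cell it turned sign, to 0.45 (adjusted p = 0.196) in WT mice, or 0.48 (adjusted p = 0.00260) with the block, and lay at 0.02 (adjusted p = 0.971) in AppSAA mice. In AppSAA mice it was also called without WT ATV:ISO pool 3, AppSAA ATV:ISO pool 2 or AppSAA ATV:4D9 pool 3 (-0.58 to -0.47).

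Atf3, a stress-induced repressor and activator of the ATF family, was not called in WT mice (751 ± 136 CPM with ATV:ISO, 719.6 ± 124 with ATV:4D9, SD, n = 4, edgeR adjusted p = 0.806). In AppSAA mice it was at 1118, 812, 1113 and 996 CPM with ATV:ISO and at 819, 694, 747 and 823 with ATV:4D9 (log2 fold change -0.31, standard error 0.13, edgeR adjusted p = 0.0540). The lowest control lay just under the highest treated mice. The pool as a block brought it past the threshold (adjusted p = 0.0313), as did leaving out any of AppSAA ATV:4D9 pool 1, AppSAA ATV:ISO pool 2, WT ATV:4D9 pool 1, WT ATV:ISO pool 1 or WT ATV:ISO pool 4 (-0.39 to -0.31). Counted per cell, Atf3 rose in WT mice by 0.91 (adjusted p = 5.85e-05), from 7.33, 5.36, 6.79 and 6.20 UMIs to 8.99, 11.8, 14.9 and 12.7, without overlap. In WT mice 68.2% of all genes were called higher on UMIs per cell. In AppSAA mice the sign turned on that scale, to 0.19 (adjusted p = 0.353).

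Egr2, a zinc finger factor that is induced in myeloid and lymphoid activation, had the largest log2 fold change of the 10 in AppSAA mice, and in WT mice fell less than Jund and Jun. It was at 27.2, 20.1, 25.1 and 23.3 CPM in WT ATV:ISO and at 13.5, 14.5, 15.2 and 13.7 in WT ATV:4D9, a fall of the log2 value by 0.63 (standard error 0.11, edgeR adjusted p = 3.98e-05). AppSAA ATV:ISO mice had 32.2, 30.7, 42.0 and 35.3 CPM and AppSAA ATV:4D9 mice 12.2, 14.5, 13.2 and 13.2 (log2 fold change -1.33, standard error 0.11, edgeR adjusted p = 2.74e-09). The 2 ATV:4D9 groups thus lay at the same low level and neither overlapped its control. The change in AppSAA minus that in WT mice was -0.70 (standard error 0.15, interaction term, edgeR adjusted p = 0.00547), and Egr2 was the only member of the 10 called in that test, where 9.14% of all genes were. On UMIs per cell Egr2 fell in AppSAA (-0.85, adjusted p = 0.000496) but not in WT mice (0.21, adjusted p = 0.304). The gene lies on chr10:67535475-67542188 (plus strand, 4 exons).

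Egr1 overlapped between the groups, with 670.0, 580.0, 732 and 792 CPM in WT ATV:ISO and 405, 504, 772 and 685 in WT ATV:4D9 (-0.12, standard error 0.21, edgeR adjusted p = 0.638). In AppSAA mice the difference was -0.25 (adjusted p = 0.330). Nr4a1, an early-response receptor that acts without a known hormone, also overlapped, with 76.1, 45.4, 109 and 119.8 CPM in WT ATV:ISO and 61.7, 71.0, 135 and 113 in WT ATV:4D9 (0.24, standard error 0.29, edgeR adjusted p = 0.500). For both genes the spread within a group was larger than the difference, and it followed the pool. Per cell Egr1 (0.75, adjusted p = 0.0338) and Nr4a1 (1.09, adjusted p = 0.0199) were called higher in WT mice, where 70.5% of all genes were called on that scale, and neither in AppSAA mice (0.26 and 0.64), where 55.3% were.

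Ier2 was the only one of the 10 called higher with ATV:4D9 by edgeR on the CPM scale over all microglia, in WT mice. It was at 508, 446, 380.2 and 416 CPM in WT ATV:ISO and at 489.9, 491, 606 and 497 in WT ATV:4D9, with 1 control above 3 of the treated mice. The log2 fold change was 0.36 (standard error 0.15, edgeR adjusted p = 0.0486), just past the threshold. The call was lost without WT ATV:ISO pool 2 (0.38, adjusted p = 0.0658), pool 3 (0.28, 0.148) or pool 4 (0.32, 0.114). It was also lost without WT ATV:4D9 pool 1 (0.36, adjusted p = 0.0765), pool 3 (0.30, 0.132) or pool 4 (0.38, 0.0579). Leaving out AppSAA 4D9 pool 1 or 4, AppSAA ATV:4D9 pool 3 or AppSAA ATV:ISO pool 2, which only lend their spread, gave adjusted p = 0.0514 to 0.0535. In AppSAA mice the difference was 0.07 (adjusted p = 0.725). Counted per cell, Ier2 rose in both genotypes, by 1.23 (adjusted p = 3.53e-07) in WT and 0.60 (adjusted p = 0.00181) in AppSAA mice. On that scale 68.2% of all genes in WT and 52.1% in AppSAA mice were called higher. Over the 27 other settings and left-out mice on the CPM scale with all cells, Jun, Jund and Egr2 were called in all 27 in both genotypes and Ier2 in 15. The log2 fold change of Ier2 in WT mice ran from 0.25 to 0.47 over them.

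Unfused 4D9 was compared with ATV:ISO in AppSAA mice. None of the 10 genes was called by edgeR, nor by DESeq2 or limma-voom, and 0% of all genes were called (79 of 14058 had an unadjusted p under 0.05, none of them a member). The log2 differences lay between -0.06 and 0.01. Against 4D9, ATV:4D9 lowered Jun by 0.68 on the log2 scale (edgeR adjusted p = 0.000122), and Jund differed by -0.81 (3.07e-05) and Egr2 by -1.27 (5.67e-09), with 54.3% of all genes called. Atf3 was called there too (-0.33, standard error 0.13, adjusted p = 0.0455), at 887, 1106, 993 and 1060.0 CPM with 4D9, all above the mice with ATV:4D9. Counted per cell the sign turned, to 0.13 (adjusted p = 0.553), and the groups overlapped. The call on the CPM scale lay close to the threshold and held in 14 of 27 settings. It was lost without AppSAA 4D9 pool 2 (-0.27, adjusted p = 0.131), 3 (-0.36) or 4 (-0.32). Leaving out AppSAA ATV:4D9 pool 2 (-0.27, adjusted p = 0.129), 3 (-0.30) or 4 (-0.32) also ended it. So did leaving out AppSAA ATV:ISO pool 3 or 4, WT ATV:4D9 pool 2 or 4 or WT ATV:ISO pool 3. These mice lie outside the contrast, and the log2 difference stayed at -0.33 (adjusted p = 0.0507 to 0.0531). With the pool as a block 69.9% of all genes were called, and Fosb (-0.49, adjusted p = 0.00164) and Junb (-0.25, adjusted p = 0.0160) passed as well. This contrast shares its ATV:4D9 mice with the contrast against ATV:ISO, so the pair is not independent.

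The genotypes were compared under each antibody. Under ATV:ISO 3 genes were called higher in AppSAA than in WT mice, where 28.2% of all genes were called. Egr2 was higher in every AppSAA mouse, by 0.73 (standard error 0.11, edgeR adjusted p = 2.91e-05). Atf3 was higher by 0.60 (standard error 0.13, edgeR adjusted p = 0.00192) and in 4 of 4 pools, although the groups overlapped (937, 645, 768 and 654 CPM in WT, 1118, 812, 1113 and 996 in AppSAA). Ier2 was higher by 0.51 (standard error 0.15, edgeR adjusted p = 0.0181), and this call was lost without AppSAA ATV:ISO pool 1 (0.32, adjusted p = 0.0957), whose 724 CPM stood far above the other mice, or WT ATV:ISO pool 3 (0.43, 0.0656) or pool 4 (0.47, 0.0535). Fosb was called without WT ATV:ISO pool 3 (0.56, adjusted p = 0.0376) and Jun without AppSAA ATV:ISO pool 1 (-0.39, adjusted p = 0.0157). With the pool as a block, where 51% of all genes were called, Jun (-0.24, adjusted p = 0.0437) and Junb (0.22, adjusted p = 0.0459) passed too. On UMIs per cell, where 24.4% of all genes were called, Egr2 (0.98), Atf3 (0.86), Ier2 (0.74) and Junb (0.45) were called higher. Under ATV:4D9 none of the 10 differed between the genotypes by edgeR (11.8% of all genes called, no member at an unadjusted p under 0.05).

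**Figure D4:**
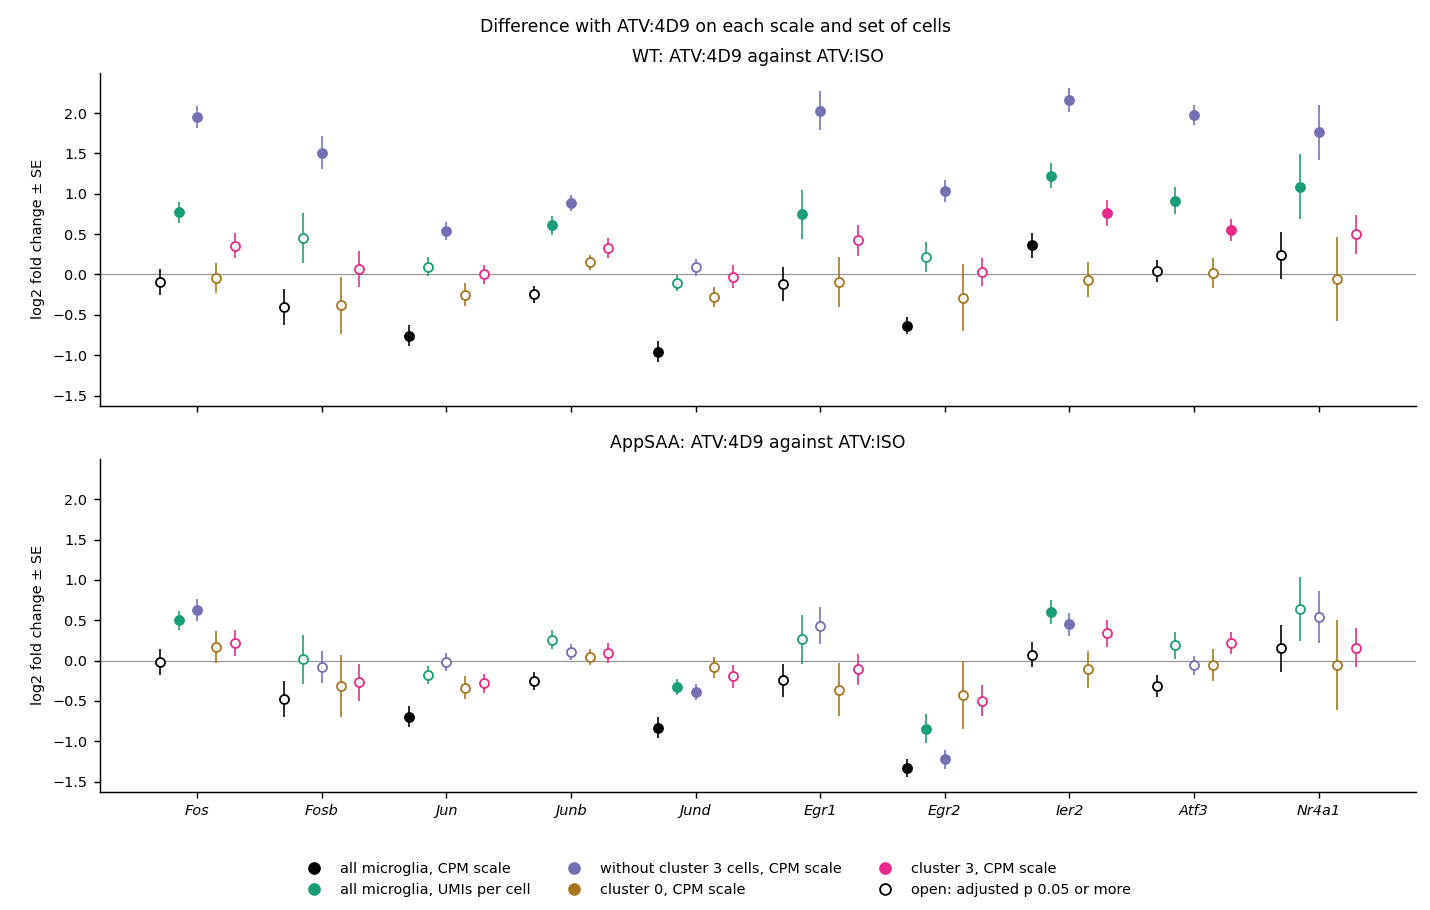
Log2 fold change ± SE of ATV:4D9 against ATV:ISO in WT (top) and AppSAA mice (bottom), on the CPM scale over all microglia, on UMIs per cell, without the cells of cluster 3, and within clusters 0 and 3; open points have an adjusted p of 0.05 or more. In WT mice the sign of Fos, Fosb, Jun, Junb, Egr1 and Egr2 differs between the CPM scale and UMIs per cell, and within cluster 0 no point is filled.

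The scale and the cells that entered decided the sign of several WT differences. Without the cells of cluster 3, an alternative chosen after the data were seen, 9 of the 10 genes were called higher in WT ATV:4D9, where 63% of all genes were called. The log2 fold changes were 1.95 for Fos, 1.51 for Fosb, 0.54 for Jun, 0.88 for Junb, 2.03 for Egr1, 1.03 for Egr2, 2.16 for Ier2, 1.98 for Atf3 and 1.76 for Nr4a1, and Jund was at 0.09 (adjusted p = 0.482). This alternative takes out cells that were grouped by their expression, 35.8% of the WT ATV:ISO cells and 4.56% of the WT ATV:4D9 cells, and leaves the WT ATV:ISO sums mostly cluster 0. It is no test of the treatment. In AppSAA mice, where clusters other than 0 and 3 made up more of the controls, the same step gave calls of 0.63 for Fos, 0.45 for Ier2, -0.39 for Jund and -1.22 for Egr2, with 53.9% of all genes called. Between the ATV:ISO groups all 10 were then higher in AppSAA mice (0.39 to 2.32, 35.7% of all genes called). The interaction without cluster 3 was called for 9 of the 10 (14.5% of all genes called). Cluster 0, the lowest in these genes, held 60.4% of the WT ATV:ISO cells and 30.8% of the AppSAA ATV:ISO cells. Neither result without cluster 3 is therefore a test of the genotype. On UMIs per cell, with all cells, the change differed between the genotypes for Egr2 (-1.06), Atf3 (-0.72) and Ier2 (-0.63), with 15.9% of all genes called. In AppSAA mice Egr2 and Jund were called lower on the CPM scale, on UMIs per cell and without cluster 3.

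Clusters 0 and 3 were then kept apart. The clusters were made from expression, so a contrast within one compares cells already sorted by levels that may include these genes, and a call or its lack there does not measure the effect of the antibody on a fixed set of cells. In cluster 0, where the ATV:4D9 groups had sums of only 37 to 195 cells a mouse, no member was called in any contrast. In all genes tested there, 1.47% were called in WT mice, 0.667% in AppSAA mice against ATV:ISO, 0% for 4D9 against ATV:ISO, 0.65% for ATV:4D9 against 4D9, 0.274% and 0.154% between the genotypes under ATV:ISO and ATV:4D9, and 0% in the interaction. In WT mice Jund was the only member with an unadjusted p under 0.05. It was at 992, 985, 958 and 912 CPM with ATV:ISO and at 824, 667, 892 and 709.5 with ATV:4D9, without overlap (-0.28, standard error 0.12, edgeR adjusted p = 0.319). Fos was at 339.7, 274, 333 and 346 CPM with ATV:ISO and at 417, 215, 283 and 294 with ATV:4D9 (-0.04, standard error 0.19, adjusted p = 0.966), so the groups overlapped fully. Atf3 (0.02) and Ier2 (-0.06) were as close.

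The pool as a block brought a few Jun differences in cluster 0 past the threshold. In WT mice, where 8.96% of all genes were then called, Jund (-0.30, adjusted p = 0.00451) and Jun (-0.26, adjusted p = 0.0168) were lower. Counted per cell with the block, Jund passed (-0.27, adjusted p = 0.0168) and Jun did not (-0.23, adjusted p = 0.0622). Jun was at 1494, 1258, 1214 and 1328 CPM with ATV:ISO and at 1301, 914, 1054 and 1045 with ATV:4D9, lower in 4 of 4 pools. In AppSAA mice Jun was lower against ATV:ISO (-0.35, adjusted p = 0.00409; 5.27% of all genes) and against 4D9 (-0.41, adjusted p = 0.000602; 4.62%), also in 4 of 4 pools. Junb was higher in AppSAA ATV:ISO than in WT ATV:ISO mice (0.25, adjusted p = 0.000299; 4.61% of all genes), at 1093, 925, 935 and 1047 against 883, 879.9, 784 and 886 CPM, with no overlap. The sums differed in size between the groups, and the part of that in these values was not tested.

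In cluster 3 the ATV:4D9 sums held 68 to 268 cells a mouse and those of the other groups up to 1448. WT mice had 2 members called, both higher with ATV:4D9, against 6.17% of all genes. Ier2 was at 1002, 897, 779.9 and 886 CPM with ATV:ISO and at 1406, 1328, 1809 and 1157 with ATV:4D9, every treated mouse above every control (log2 fold change 0.76, standard error 0.16, edgeR adjusted p = 0.00453). It was called in all 27 other settings. Atf3 was at 1902, 1273, 1606 and 1427 CPM with ATV:ISO and at 1756, 2301, 2740.4 and 1793 with ATV:4D9 (0.55, standard error 0.14, edgeR adjusted p = 0.0133), with 1 control among the treated mice. The Atf3 call was lost without WT ATV:4D9 pool 3 (0.43, adjusted p = 0.0613), WT ATV:ISO pool 2 (0.46, 0.0717) or WT ATV:ISO pool 4 (0.50, 0.0551), and on UMIs per cell (0.51, adjusted p = 0.0720).

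Jun and Jund, which fell over all microglia, had log2 fold changes of 0.00 and -0.03 within cluster 3 of WT mice. Their mean CPM were 6529 and 3765 with ATV:ISO and 6145 and 3482 with ATV:4D9. With the pool as a block 17.5% of all genes were called there and 4 more members passed, Fos (0.37, adjusted p = 0.00280), Junb (0.33, 0.0102), Egr1 (0.40, 0.0269) and Nr4a1 (0.53, 0.00454), all higher with ATV:4D9. Only Junb among them had no overlap, with 3855, 3815, 3486 and 3831 CPM against 3872, 4409, 5449 and 3966. In cluster 3 of AppSAA mice no member was called by edgeR against ATV:ISO (4.33% of all genes), for 4D9 against ATV:ISO (0%) or against 4D9 (3.52%), nor between the genotypes (0.189% under ATV:ISO, 0.163% under ATV:4D9) or in the interaction (0%). With the block, Jun was lower (-0.28, adjusted p = 0.0139) and Ier2 higher (0.35, adjusted p = 0.0323) against ATV:ISO, where 12.6% of all genes were called. Against 4D9 the values were -0.29 (0.0143) and 0.34 (0.0443), with 11.2% called, and on UMIs per cell with the block that Ier2 call ended (0.23, adjusted p = 0.112). Jun was at 7459, 6371, 6529 and 6256 CPM with ATV:ISO and at 4885, 5898, 4719 and 4624 with ATV:4D9, without overlap. Egr2 was lower in every AppSAA ATV:4D9 mouse there as well (45.9, 47.8, 65.4 and 50.4 against 12.7, 42.2, 28.3 and 39.3 CPM), but was not called (-0.50, edgeR adjusted p = 0.152).

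In clusters 1, 4 and 5 the antibodies could be compared only among AppSAA mice, because fewer than 3 mice of a WT group had 20 cells there. In cluster 2 of WT mice no member was called by edgeR with ATV:4D9 (5.88% of all genes called, no member at an unadjusted p under 0.05). The WT ATV:ISO sums there held only 23 to 42 cells a mouse, against 1339 to 2186 with ATV:4D9. Egr2 was at -0.48 (standard error 0.34, edgeR adjusted p = 0.456), on 4 to 22 UMIs a control mouse. Sums of that size limit what this WT contrast can show. Between the genotypes no member was called under ATV:ISO in clusters 1 (1.23% of all genes) and 2 (0.281%), under ATV:4D9 in clusters 2 (2.07%), 4 (2.76%) and 5 (6.43%), or in the interaction in cluster 2 (0.156%). Nor was any called for 4D9 against ATV:ISO in clusters 1, 2, 4 and 5, where 0% of all genes were. In AppSAA mice Egr2 was lower with ATV:4D9 in clusters 1, 2 and 5. In cluster 1 it was at 38.4, 34.5, 48.3 and 40.9 CPM with ATV:ISO and at 19.6, 20.9, 19.8 and 18.3 with ATV:4D9 (-1.002, standard error 0.12, edgeR adjusted p = 4.47e-05; 1.34% of all genes called). Against 4D9 the difference was -0.96 (adjusted p = 6.32e-05; 1.63%). In cluster 2 it was at 32.4, 26.0, 47.2 and 32.9 against 12.8, 14.6, 13.6 and 13.4 CPM (-1.35, standard error 0.21, adjusted p = 6.48e-05; 13.2% of all genes), and -1.24 against 4D9 (adjusted p = 0.000478; 13.4%). In cluster 5 it was at 14.8, 32.05, 30.04 and 17.7 against 9.52, 11.5, 11.4 and 9.44 CPM (-1.18, adjusted p = 0.000126; 27% of all genes). Against 4D9 it was -0.72 there (adjusted p = 0.0788; 14.5% of all genes), called with the pool as a block (-0.75, adjusted p = 0.0373; 20.5% of all genes). These cluster 5 sums held only 7, 40, 91 and 25 Egr2 UMIs with ATV:ISO and 6, 7, 9 and 27 with 4D9. Against ATV:ISO the groups did not overlap in any of the 3 clusters.

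Jund and Jun fell in part of these clusters. Jund in cluster 2 was at 1660.4, 1396, 1464 and 1189 CPM with ATV:ISO and at 917, 985, 874 and 978 with ATV:4D9 (-0.56, standard error 0.14, edgeR adjusted p = 0.00938). Against 4D9 it was lower by a log2 value of -0.48 (adjusted p = 0.0240), a call lost without AppSAA 4D9 pool 2 (-0.37, adjusted p = 0.115), AppSAA 4D9 pool 3 (-0.47, 0.0599) or AppSAA ATV:4D9 pool 3 (-0.44, 0.0684). Counted per cell without the block neither Jund call held (-0.37, adjusted p = 0.0812 and -0.29, adjusted p = 0.177), and with the block the first did (-0.37, adjusted p = 0.0178). In cluster 5 Jun was at 2574, 1881, 1972 and 1561 CPM with ATV:ISO and at 1078, 1279, 1098 and 1309 with ATV:4D9 (-0.63, edgeR adjusted p = 0.00227), and Jund changed by -0.57 (adjusted p = 0.00385). Against 4D9 they changed by -0.74 (adjusted p = 0.00106) and -0.54 (adjusted p = 0.00971). All 4 calls in cluster 5 were lost on UMIs per cell, for Jun at -0.25 (adjusted p = 0.373) against ATV:ISO and -0.45 (0.115) against 4D9, and for Jund at -0.20 (0.405) and -0.22 (0.387). With the block as well, Jun was called against 4D9 (-0.43, adjusted p = 0.0476). Fos (0.67, adjusted p = 0.00821) and Ier2 (0.74, adjusted p = 0.00632) were called higher than with ATV:ISO on that scale. Atf3 in cluster 2 was called against ATV:ISO with the block (-0.44, adjusted p = 0.0349; 24.8% of all genes) and without WT ATV:ISO pool 2 or 4 (-0.46), against 4D9 without WT ATV:ISO pool 4 (-0.42, adjusted p = 0.0462), and Egr1 with the block (-0.39, adjusted p = 0.00356). Counted per cell with the block, neither passed (Atf3 -0.26, adjusted p = 0.261 and Egr1 -0.21, 0.203). Ier2 in cluster 5 passed with the block (0.37, adjusted p = 0.0218; 34.3% of all genes) and without any of AppSAA 4D9 pools 2 and 3, AppSAA ATV:4D9 pool 2, AppSAA ATV:ISO pool 1 and WT ATV:4D9 pool 1 in turn (0.37 to 0.44), as did Fos with the block (0.31, adjusted p = 0.0442).

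In cluster 4 Fos was called higher with ATV:4D9 than with 4D9 (0.70, edgeR adjusted p = 0.0336; 22.1% of all genes). The 4D9 mice had 511, 1836, 903 and 1253 CPM on sums of 26 to 54 cells and the ATV:4D9 mice 2119, 1829, 1619 and 1789. The groups overlapped, and the call was lost without AppSAA 4D9 pool 1 (0.47, adjusted p = 0.0944), 3 (0.60, 0.110) or 4 (0.74, 0.0556), AppSAA ATV:4D9 pool 1 (0.57, 0.107) or 2 (0.69, 0.0561), or on UMIs per cell (0.64, 0.139). Ier2 was called higher there with the block (0.60, adjusted p = 0.0420; 28.4% of all genes) or without AppSAA 4D9 pool 2 (0.75, adjusted p = 0.0462), pool 4 (0.92, 0.00690) or AppSAA ATV:ISO pool 2 (0.63, 0.0472), and Junb without AppSAA 4D9 pool 2 (0.48, 0.0378). Against ATV:ISO no member was called in cluster 4 by edgeR (24.5% of all genes, 2 members at an unadjusted p under 0.05). Ier2 passed there with the block (0.57, adjusted p = 0.0481; 30.1% of all genes) or without AppSAA 4D9 pool 4 (0.56, 0.0484). Neither Ier2 call with the block held on UMIs per cell with the block (0.61, adjusted p = 0.0763 against 4D9 and 0.52, 0.128 against ATV:ISO). Egr2 was at -0.67 (adjusted p = 0.0848) against ATV:ISO and -0.69 (adjusted p = 0.0838) against 4D9 in cluster 4, on 2 to 40 UMIs a control mouse. It was called lower against ATV:ISO without AppSAA 4D9 pool 4 (-0.67, adjusted p = 0.0406) or AppSAA ATV:ISO pool 2 (-0.87, 0.0201), and against 4D9 without AppSAA 4D9 pool 1 (-0.84, 0.0367). Under ATV:4D9, cluster 5 differed between the genotypes with the block, in Fosb (0.39, adjusted p = 0.0456) and Jund (0.32, adjusted p = 0.0395), where 14.7% of all genes were called, and Jund passed without WT ATV:4D9 pool 2 (0.47, adjusted p = 0.0321). Neither passed on UMIs per cell with the block (0.17, adjusted p = 0.488 for Fosb and 0.09, 0.658 for Jund).

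**Figure D5:**
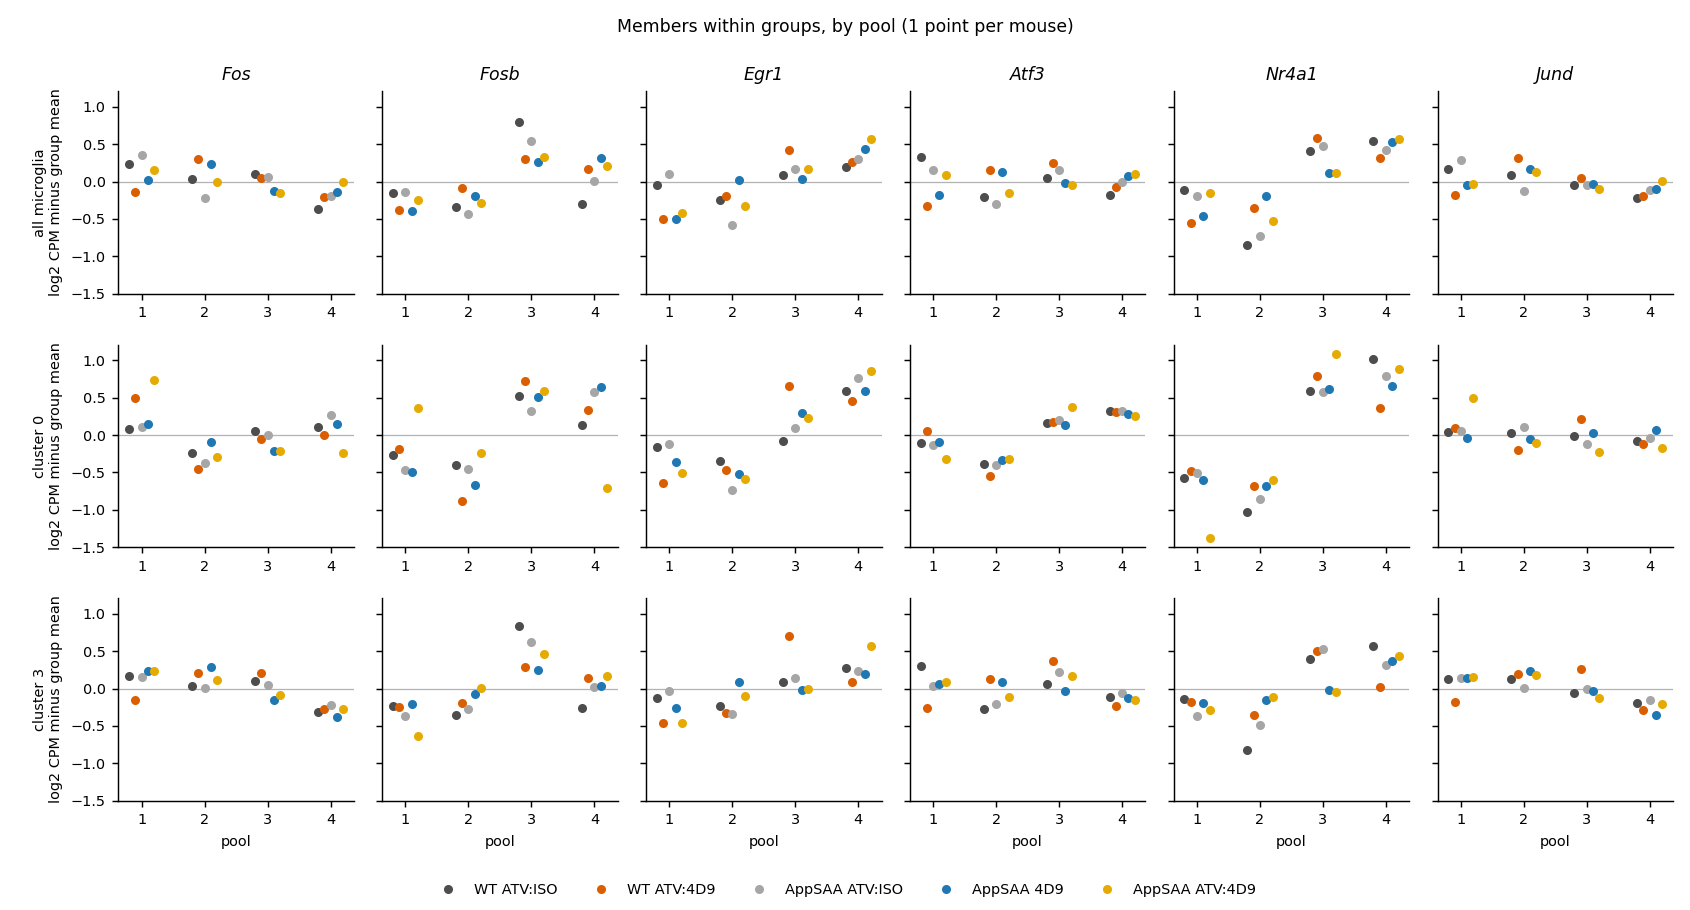
Log2 CPM minus the mean of the group for 6 of the genes, by pool, in all microglia (top), cluster 0 (middle) and cluster 3 (bottom), with 1 point per mouse coloured by group. Egr1 and Nr4a1 are higher in pools 3 and 4 than in pools 1 and 2 in all 5 groups over all microglia and in cluster 0.

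Within groups the genes varied with the pool, the batch whose cells were tagged, combined, sorted and loaded together. Nr4a1 had the widest spread, with pool means 2.01-fold apart over all microglia and 84.0% of its variance within groups lying between pools. Egr1 (1.54-fold, 68.2%) and Nr4a1 were higher in pools 3 and 4 than in pools 1 and 2 in 5 of 5 groups. Fosb was 1.65-fold apart (75.5%). Jun (1.09-fold, 12.1%), Junb (1.06-fold, 6.61%) and Atf3 (1.11-fold, 9.67%) hardly differed by pool over all microglia. Within cluster 0 the pattern was sharper. Nr4a1 pool means were 2.86-fold apart (90.7% of the variance), Egr1 2.27-fold (86.7%) and Atf3 1.62-fold (91.6%), each with pools 3 and 4 above in 5 of 5 groups. Within cluster 3 the pool means were 1.34-fold apart for Fos, 1.19-fold for Jun and 1.31-fold for Jund (1.52-, 1.24- and 1.15-fold within cluster 0), and all 3 were lowest in pool 4 in 5 of 5 groups. Every pool held all 5 groups, so the pool does not separate the treatments.

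By the fixed measure of likeness, Dusp1, a phosphatase that is itself an immediate early gene and shuts off MAP kinases, followed the set most closely across the 20 mice after the group means were taken out (Pearson r = 0.884 among 8018 genes with a mean of at least 10 CPM). Wasf2 (0.855), Spry1 (0.843), Il1a (0.777), Klf2 (0.761), Trpm4 (0.759), Esrra (0.739), St3gal6 (0.738), Pura (0.737) and Slc25a16 (0.733) came next. Among the members, Atf3 (0.928), Junb (0.803) and Jun (0.735) were closest to the mean of the set, and Nr4a1 (0.484), Fosb (0.474) and Egr2 (0.464) were farthest. These values are a description over mice that share pools and libraries.

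Related genes were read from lists drawn up for the pathway. Of 13 other AP-1 and bZIP partners tested, 3 were higher and 6 lower with ATV:4D9 in WT mice, and 3 and 6 in AppSAA mice, where 63.3% and 55.1% of all genes were called in either direction. The large Maf factor Maf, a transcription factor of macrophages, fell from 823 ± 102 to 310.4 ± 50.6 CPM in WT mice (SD, n = 4, log2 fold change -1.29, edgeR adjusted p = 1.49e-08). In AppSAA mice it changed by -0.74 (adjusted p = 3.26e-05). On UMIs per cell Maf was still lower in WT mice (-0.46, adjusted p = 0.0476). The small Maf Maff rose in WT mice by 1.69, from a low level of 2.93 to 8.76 CPM, and was at 12.99 CPM with ATV:ISO and 12.03 with ATV:4D9 in AppSAA mice (-0.04, edgeR adjusted p = 0.871). Of 5 other EGR and NR4A genes and corepressors, only Nab1, a corepressor of EGR factors, was called, higher by 0.84 in WT (adjusted p = 3.89e-08) and 0.81 in AppSAA mice (adjusted p = 7.61e-08). Its level was 25.8 ± 1.88 CPM with ATV:ISO and 42.6 ± 2.11 with ATV:4D9 in WT mice, without overlap. With the pool as a block 3 and 2 of the 5 were called higher, where 74.6% and 70.7% of all genes were called.

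Other immediate early genes moved both ways, at a share close to that of all genes. In each genotype 7 of 20 were higher and 7 lower (30.8% and 32.5% of all genes in WT, 27.9% and 27.1% in AppSAA mice), among them Ier3 (1.27 in WT and 0.80 in AppSAA), Gadd45b (1.46 in WT) and Klf10 (1.52 in AppSAA) higher, and the endothelial and myeloid factor Klf4 (-1.34 and -1.01) lower. On UMIs per cell 12 and 10 were higher and 0 lower, where 68.2% and 52.1% of all genes were higher. Of 17 upstream kinases, SRF factors and phosphatases, 4 were higher and 5 lower in each genotype. The phosphatase Dusp2 was higher (1.602 and 1.625), and Dusp6 (-0.91 and -0.69) and the ERK inhibitor Spry1 (-0.70 and -0.91) were lower on the CPM scale, with UMIs per cell at -0.06 and 0.16 for these in WT mice.

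Heat shock and cytokine genes that tissue dissociation can raise were read over all microglia as well, beside the 30.8% of all genes called higher in WT and the 27.9% in AppSAA mice. Of 12 heat shock genes 6 were higher and 1 lower in WT mice, and 10 higher and 1 lower in AppSAA mice, with Hspd1 at 1.46 and 1.24, Hsp90aa1 at 1.26 and 1.35 and Hsp90ab1 at 1.25 and 1.19. Of 13 cytokine and NF-kB genes 9 were higher and 0 lower in each genotype. Tnf rose from 116 ± 31.3 to 719 ± 183 CPM in WT mice (SD, n = 4, log2 fold change 2.74, edgeR adjusted p = 8.92e-09) and from 173 ± 49.6 to 738 ± 174 in AppSAA mice (2.18, adjusted p = 2.70e-07). Ccl2 rose by 2.45 and 3.64 and Ccl4 by 1.58 and 0.95. Within cluster 0 at most 1 gene of any of these 6 lists was called in either contrast. Within cluster 3, 8 of 19 other immediate early genes and 7 of 13 cytokine and NF-kB genes were higher with ATV:4D9 in WT mice (4.15% of all genes), and 4 and 5 in AppSAA mice (3.37% of all genes), where 3 of 12 heat shock genes were also higher. Their part in the values of the 10 genes was not tested.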

How the data were processed

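The deposited table held raw UMI counts (19737 genes, 74758 cells), and the authors added the mouse, group, pool, mitochondrial percent and cluster number of each cell. According to the deposited notes and the paper's methods, reads were mapped to mm10 with Cell Ranger 6.1.1 and cells clustered with Seurat. Cell filters and doublet removal are not given in the sources used here, and every deposited cell was kept. All mice came from the deposited annotation, since a GEO sample is a pool.

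Counts were pooled over the cells of a mouse, and over its cells in each deposited cluster (resolution 0.2) where at least 20 were present. The quasi-likelihood test of edgeR 4.0.16 (R 4.3.3; low counts removed by filterByExpr, TMM factors) was run as a single fit over 5 groups, with Benjamini-Hochberg adjustment over all genes tested and calls at 0.05. Contrasts within a cluster needed 3 mice a group. Alternatives were RLE factors, total UMIs, no filter, DESeq2 1.42.0, limma-voom 3.58.1, limits of 1000 and 25000 UMIs, 50 cells a sum, the finer clustering, each mouse left out and the pool as a block. UMIs per cell, alone and with the block, and the sums without cluster 3 were added after seeing the data. The pool pairs the mice. Each pool held 1 mouse of every group by the labels, and deviations from group means correlated in all 40 pairs of mice from 1 pool (0.227 to 0.709). The test was tried on simulated counts before use.

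The members and lists were chosen with earlier results of these data known. All 10 members were named. From each other list the 3 called genes with the largest change in the ATV:4D9 contrasts were named (mean of at least 10 CPM over the 20 mice), except 1 that is not reported here, and for likeness the 10 genes with the highest correlation. Marker lists summed to 14635 to 26821 CPM for microglia, 0.0583 to 1.18 for T and NK cells and 0.509 to 2.26 for neurons. The sums were 9.97 to 32.7 for border macrophages, 4.16 to 14.0 for monocytes and 4.29 to 23.5 for neutrophils. They were 177 to 304 for B cells (mostly Ighm), 12.1 to 53.9 for endothelial cells and 62.2 to 167 for astrocytes (mostly Slc1a3). For oligodendrocytes they were 79.8 to 121, with Cnp the highest gene at a mean of 44.7 CPM.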

Additional observations from a re-analysis of the deposited data

Results flagged for a closer look

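Among 150 groups of 4 mice (each gene in each group, over all microglia and in clusters 0 and 3), 12 (8%) held 1 mouse that stood apart from the other 3 by Dixon's criterion at the 95% level. Chance alone marks about 1 group in 20. Pools 1 and 3 supplied 5 such mice each, pool 2 supplied 2 and pool 4 supplied 0.

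Over all microglia, the WT ATV:ISO mouse of pool 3 had the highest Fosb at 316 CPM, where the other 3 had 143 to 163. The AppSAA ATV:ISO mouse of pool 1 had the highest Jund at 2188 CPM and the highest Ier2 at 724 CPM. Ier2 was also highest in the WT ATV:4D9 mouse of pool 3, at 606 CPM.

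Within cluster 0, the WT ATV:ISO mouse of pool 2 had the lowest Fos at 274 CPM, and the AppSAA ATV:4D9 mouse of pool 1 had the highest Fos at 502 CPM and the highest Jund at 1154 CPM. Junb was lowest at 784 CPM in the WT ATV:ISO mouse of pool 3 and at 807 CPM in the WT ATV:4D9 mouse of pool 2.

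Within cluster 3, the WT ATV:ISO mouse of pool 3 had the highest Fosb at 669 CPM and the lowest Junb at 3486 CPM, and the AppSAA ATV:ISO mouse of pool 1 had the highest Junb at 4727 CPM.

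The effect of ATV:4D9 on Egr2 over all microglia differed between the genotypes, by -0.70 on the log2 scale in AppSAA against WT mice (interaction term, edgeR adjusted p = 0.00547).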

How the results depend on the processing

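Over the alternatives, 9809 values of single genes stayed on their side of the threshold, 150 newly passed it and 62 no longer passed it. Of the 9809, 9086 kept their direction and 723 turned sign with no call in either fit. Another 29 turned sign with a call in one of the fits. All 29 came from UMIs per cell or from leaving out cluster 3. In WT mice the values on UMIs per cell were 0.77 for Fos, 0.10 for Jun, 0.61 for Junb, 0.75 for Egr1 and 0.21 for Egr2, and with the pool as a block as well 0.77, 0.0950, 0.61, 0.70 and 0.22, with Fosb at 0.48. Without cluster 3 they were 1.95 for Fos, 1.51 for Fosb, 0.54 for Jun, 0.88 for Junb, 0.0889 for Jund, 2.03 for Egr1 and 1.03 for Egr2. In AppSAA mice against ATV:ISO, Fos was at 0.50 on UMIs per cell, with or without the block, Junb at 0.25 with the block, and Fos at 0.63 without cluster 3. Against 4D9, Atf3 was at 0.13 on UMIs per cell, with or without the block. Without cluster 3, Jun was at 0.39 and Jund at 0.56 between the ATV:ISO groups, and the interaction was -1.32 for Fos, -0.56 for Jun and -0.48 for Jund. UMIs per cell carry the higher depth of the ATV:4D9 cells, and leaving out cluster 3 removes cells grouped by their expression.

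Counts of members called over all microglia moved as follows. In WT mice 4 became 6 with UMIs per cell (Ier2 among both, with Jun, Jund and Egr2 lost and Fos, Junb, Egr1, Atf3 and Nr4a1 gained), 6 with the block, 7 with UMIs per cell and the block, and 9 without cluster 3. For AppSAA ATV:4D9 against ATV:ISO 3 became 5 with DESeq2, 5 with total UMIs, 6 with the block and 6 with UMIs per cell and the block. On UMIs per cell alone Jun was lost in that contrast, and Fos and Ier2 were gained. Against 4D9 4 became 6 with the block. The lowest count over these other settings was 3 in WT mice and 3 for ATV:4D9 against 4D9. Between the ATV:ISO groups 3 became 5 with the block, 6 with UMIs per cell and the block, and 10 without cluster 3. Between the ATV:4D9 groups 0 became 1 with UMIs per cell and the block. The interaction went from 1 to 3 with UMIs per cell, 4 with the block as well, and 9 without cluster 3. In cluster 0 the counts of 0 became 2 with the block in WT mice and 1 in AppSAA mice against ATV:ISO, against 4D9 and between the ATV:ISO groups, and 1 or 2 with UMIs per cell and the block, also between the ATV:4D9 groups. In cluster 3 the WT count of 2 became 1 with UMIs per cell and 6 with the block on either scale, and the AppSAA counts of 0 became 2 with the block and 4 (against ATV:ISO) or 3 (against 4D9) with UMIs per cell and the block. In cluster 1 both counts of 1 became 4 with UMIs per cell and the block. In cluster 2, 2 became 4 with the block and 1 with UMIs per cell against ATV:ISO, and 1 with UMIs per cell against 4D9, with or without the block. In cluster 4, 0 became 1 with the block on either scale against ATV:ISO, and 1 became 2 with the block and 0 with UMIs per cell against 4D9. In cluster 5, 3 became 5 with the block and 6 with UMIs per cell and the block against ATV:ISO, 2 became 0 with UMIs per cell against 4D9, and 0 became 2 with the block between the ATV:4D9 groups. The pool as a block on the CPM scale only added calls and ended none. It also raised the share of all genes called over all microglia, from 63.3% to 74.6% in WT mice and from 55.1% to 70.7% in AppSAA mice against ATV:ISO. For DESeq2, total UMIs, UMIs per cell with the block and UMIs per cell within a cluster that share is not given here. Those counts therefore cannot be set against all genes. With each mouse left out, the counts ran over all microglia from 3 to 5 in WT, 3 to 6 (against ATV:ISO) and 3 to 5 (against 4D9) in AppSAA mice and 2 to 3 between the ATV:ISO groups. They ran from 1 to 2 in cluster 3 of WT mice, from 2 to 3 and 1 to 3 in cluster 2, from 0 to 2 and 0 to 3 in cluster 4, and from 3 to 4 (against ATV:ISO) and 0 to 1 (between the ATV:4D9 groups) in cluster 5. The causes of these moves were not tested. Sums of 50 cells left too few mice in cluster 0 for contrasts with AppSAA ATV:4D9, which were not run. Sums of 37 to 268 cells limit what clusters 0 and 3 can show with ATV:4D9.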
